A study of Mus musculus with 27 samples.

Results

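H3K4me1, histone H3 monomethylated at lysine 4, was profiled by ChIP-seq in B220+ cells of VavP-Bcl2 mice whose blood stem cells had received SHMT2 or an empty vector. The H3K4me1 set held 4 of the 27 libraries of the series, vector replicates 4 and 5 and SHMT2 replicates 4 and 5. Their 4 deposited peak lists, restricted to the 19 autosomes, were merged wherever peaks touched, which gave 53808 union regions spanning 133.2 Mb. All 53808 regions were described. The groups were compared by which lists held a region, by the bases covered, by the rank of its fold enrichment, and by the genes and gene starts nearby.

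Both groups came from haematopoietic stem cells taken from fetal liver at E13.5. All cells carried the VavP-Bcl2 transgene, in which a Vav promoter drives the survival gene Bcl2 throughout the blood lineages, so the controls are Bcl2-driven as well. Cells were infected with an empty vector or with MSCV-SHMT2, a retroviral vector for the mitochondrial enzyme SHMT2, and were injected into irradiated wild-type mice. B220+ cells, B220 being a form of CD45 on B cells, were taken from the spleen, and the ChIP-seq protocol calls the material tumours. Chromatin was sonicated and precipitated with the H3K4me1 antibody ab8895. Age, sex and time after transplantation were not given in the sources used here, and no label ties the libraries to different animals. Every p-value therefore covers the variation among these libraries alone, and that variation could be technical. Series libraries used beside H3K4me1 were 2 vector and 3 SHMT2 H3K4me3 libraries, 3 and 3 RNA-seq libraries, and 3 and 3 ERRBS libraries, which read DNA methylation at CpG-rich sites.

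H3K4me1 is laid down mainly by the methyltransferases KMT2C and KMT2D and marks enhancers, both primed and active. At active promoters the nucleosomes next to the start carry H3K4me3, and H3K4me1 sits on either side of them. SHMT2 converts serine to glycine in mitochondria and loads a 1-carbon unit onto folate, a route that can feed the methyl donor S-adenosylmethionine.

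The promoter windows of 7 genes are examples picked from the top of ranked sets of regions. Each window runs from 250 bases before to 50 after the start, on the gene's own strand, in RefSeq sequence of build GRCm38.p6, and CG dinucleotides are in capitals. Caprin1 (chr2:103797029-103797328, minus strand) and Cmip (chr8:117256769-117257068, plus strand) were the first 2 genes with a single listed start next to a region found in both SHMT2 lists and no vector list. Their windows held 43 and 50 CG dinucleotides. The median was 18 over the 1108 starts with a peak within 1 kb in both SHMT2 libraries and no vector library.
Caprin1: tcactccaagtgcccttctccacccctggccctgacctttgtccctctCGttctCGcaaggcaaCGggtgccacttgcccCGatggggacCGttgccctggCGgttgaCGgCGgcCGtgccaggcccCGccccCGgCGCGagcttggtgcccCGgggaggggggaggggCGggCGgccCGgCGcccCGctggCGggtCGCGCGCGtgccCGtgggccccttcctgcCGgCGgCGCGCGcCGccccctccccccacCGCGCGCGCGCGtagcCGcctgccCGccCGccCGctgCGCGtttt
Cmip: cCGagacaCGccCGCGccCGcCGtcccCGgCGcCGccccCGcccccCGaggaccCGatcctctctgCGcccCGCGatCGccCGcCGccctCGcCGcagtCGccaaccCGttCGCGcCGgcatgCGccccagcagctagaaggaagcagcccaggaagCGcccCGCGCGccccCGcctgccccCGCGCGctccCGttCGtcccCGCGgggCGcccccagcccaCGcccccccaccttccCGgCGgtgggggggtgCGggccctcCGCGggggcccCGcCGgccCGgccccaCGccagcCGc
Cnot11 (chr1:39535451-39535750, plus strand) stood next to one of the few regions of the opposite kind, with 31 CG dinucleotides in its window.
Cnot11: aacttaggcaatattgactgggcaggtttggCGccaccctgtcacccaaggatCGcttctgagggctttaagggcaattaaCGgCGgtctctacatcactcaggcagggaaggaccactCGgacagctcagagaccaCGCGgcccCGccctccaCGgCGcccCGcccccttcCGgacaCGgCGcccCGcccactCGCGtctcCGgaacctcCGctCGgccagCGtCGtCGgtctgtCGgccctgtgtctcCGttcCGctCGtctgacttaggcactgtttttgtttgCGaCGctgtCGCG
Cyp51 (chr5:4104648-4104947, minus strand) flanked a region whose fold enrichment ranked higher in both SHMT2 libraries. Rnpc3 (chr3:113630100-113630399, minus strand) and Evi5 (chr5:107868999-107869298, minus strand) flanked regions that ranked lower there. Their windows held 28, 22 and 30 CG dinucleotides.
Cyp51: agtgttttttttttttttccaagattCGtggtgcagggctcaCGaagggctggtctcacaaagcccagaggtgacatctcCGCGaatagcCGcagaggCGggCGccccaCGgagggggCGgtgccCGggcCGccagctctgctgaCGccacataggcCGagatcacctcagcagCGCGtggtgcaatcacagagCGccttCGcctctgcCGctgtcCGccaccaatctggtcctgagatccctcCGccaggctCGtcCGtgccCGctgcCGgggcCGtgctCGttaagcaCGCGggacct
Rnpc3: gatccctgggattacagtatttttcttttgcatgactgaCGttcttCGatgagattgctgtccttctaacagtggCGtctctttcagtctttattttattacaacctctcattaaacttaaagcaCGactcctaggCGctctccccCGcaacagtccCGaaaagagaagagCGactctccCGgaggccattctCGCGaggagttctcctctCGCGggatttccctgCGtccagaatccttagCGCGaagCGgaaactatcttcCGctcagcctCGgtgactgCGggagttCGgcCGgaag
Evi5: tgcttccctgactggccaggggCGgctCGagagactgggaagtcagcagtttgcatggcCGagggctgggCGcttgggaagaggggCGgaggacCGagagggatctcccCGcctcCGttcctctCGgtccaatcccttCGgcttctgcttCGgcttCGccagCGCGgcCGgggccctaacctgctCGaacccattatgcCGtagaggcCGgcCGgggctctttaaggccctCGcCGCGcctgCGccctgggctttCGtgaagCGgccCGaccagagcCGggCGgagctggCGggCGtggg
Ikzf1 (chr11:11689927-11690226, plus strand) lay inside the widest region with a gene start in it, which was present in all 4 lists. Its window held 2 CG dinucleotides.
Ikzf1: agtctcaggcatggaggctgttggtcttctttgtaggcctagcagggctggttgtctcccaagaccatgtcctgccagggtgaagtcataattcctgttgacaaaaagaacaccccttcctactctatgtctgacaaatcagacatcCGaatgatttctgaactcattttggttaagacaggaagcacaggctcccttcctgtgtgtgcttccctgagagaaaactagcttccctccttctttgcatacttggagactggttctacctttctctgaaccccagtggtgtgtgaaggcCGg
The first 6 starts lay outside their region, at distances of 244 to 842 bases, and had a CG-rich window. Of the 7, only the CG-poor Ikzf1 start lay within its region. The 7 were picked by rank, and other named starts, those of Fndc10 and Nxph3, also lay inside their regions.

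The SHMT2 lists were longer, covered more of the genome and held more strongly enriched peaks. Vector replicates 4 and 5 held 36622 and 32742 autosomal peaks, and SHMT2 replicates 4 and 5 held 47948 and 50959. Peaks covered 76.3 and 62.0 Mb in the vector libraries and 112.2 and 115.9 Mb in the SHMT2 libraries. The groups did not overlap in either measure, and the SHMT2 mean was 1.43 times the vector mean for peak number and 1.65 times for covered length. Median peak width was 1221 and 1152 bp against 1363 and 1319 bp, a ratio of 1.13. With 2 libraries against 2, the two-sided exact permutation p was 0.333 for all 3 measures, the smallest this design can give.

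**Figure D1:**
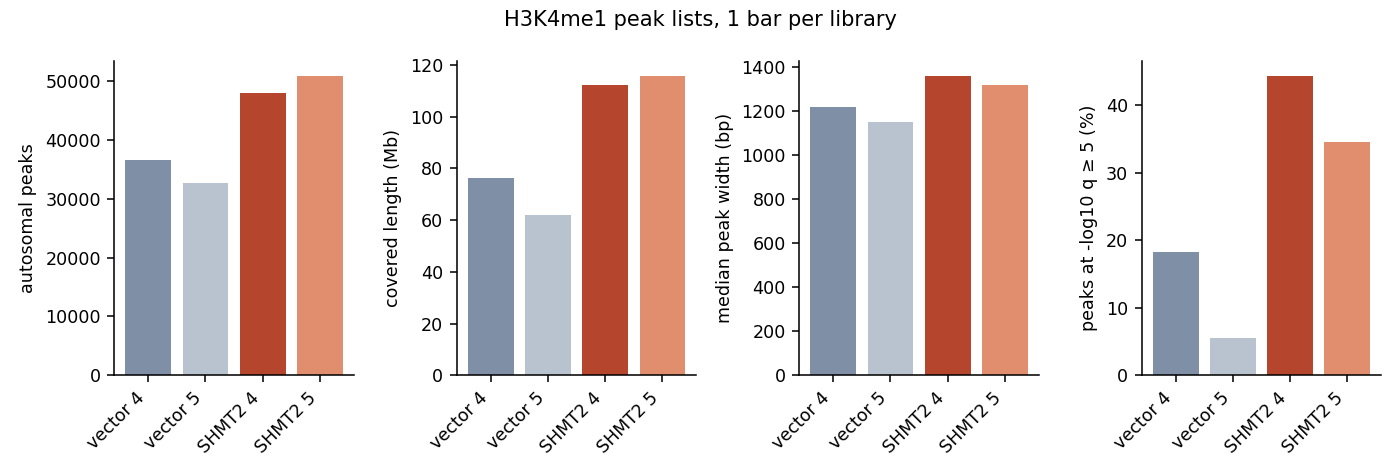
Peak lists of the 4 H3K4me1 libraries on autosomes: number of peaks, covered length in Mb, median peak width in bp, and percent of peaks with a −log10 q of at least 5, 1 bar per library. Both SHMT2 bars stand above both vector bars in all 4 panels, and the share of strong peaks runs from 5.59% in vector replicate 5 to 44.4% in SHMT2 replicate 4.

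The strength of the lists moved with the group as well. Peaks with a −log10 q of at least 5 made up 18.3% and 5.59% of the vector lists and 44.4% and 34.6% of the SHMT2 lists. The highest fold enrichment, a value the authors deposited for each peak, was 7.27 and 6.11 against 11.3 and 9.25, while the median fold enrichment overlapped, at 3.73 and 3.38 against 3.78 and 3.41. The total reads of the libraries are unknown, and the part of library quality in the differences that follow was not tested. The main counts are therefore also given for equal list lengths, in which the 32742 peaks with the highest fold enrichment were kept in each library. At equal lengths the covered length was 73.2 and 62.0 Mb against 98.2 and 98.7 Mb, a ratio of 1.46. The cut left vector replicate 5 whole, down to a fold enrichment of 1.34. It ended at 3.12 in vector replicate 4 and at 3.32 and 3.12 in the SHMT2 libraries. Median width was then 1351.5 and 1152 bp against 1876 and 1904 bp. Equal lengths even out the number of peaks and not their width, and the part of library quality in them was not tested either.

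Regions common to all lists were the largest class. Of the 53808 regions, 24466 (45.5%) were present in all 4 lists. Regions present in both SHMT2 lists and no vector list numbered 8556 (15.9%). The reverse, both vector lists and no SHMT2 list, held for 14 regions (0.026%). SHMT2 replicate 5 alone held 6525 regions and SHMT2 replicate 4 alone 3751, against 221 for vector replicate 4 and 679 for vector replicate 5.

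At equal list lengths the asymmetry was smaller and kept its direction. The union then held 39949 regions, of which 20962 (52.5%) were in all 4 lists. Regions of both SHMT2 libraries alone numbered 1858 (4.65%) and regions of both vector libraries alone 514 (1.29%). Presence in 2 against 2 lists carries no test.

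**Figure D2:**
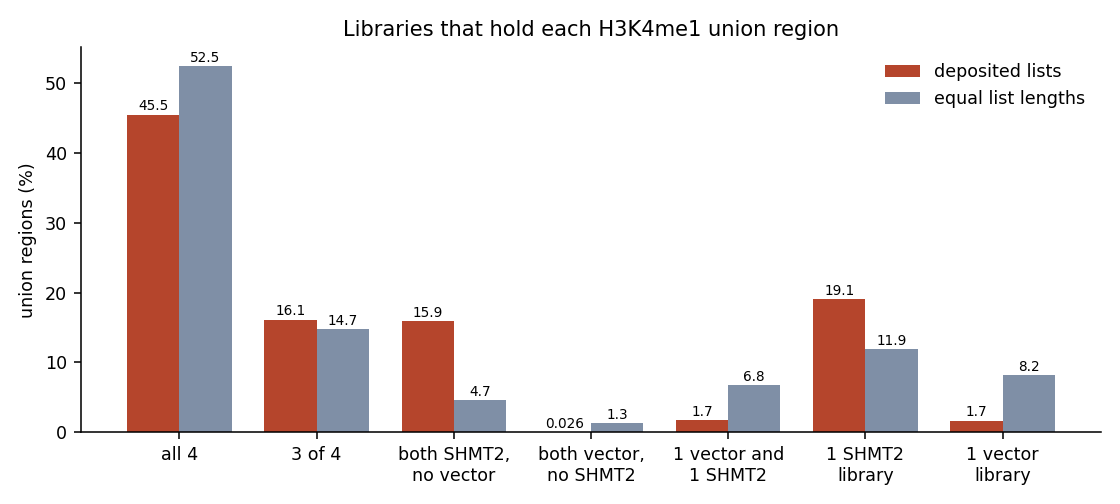
Percent of union regions held by each combination of libraries, for the deposited lists (red) and for lists cut to equal length (grey). The bar for both SHMT2 libraries and no vector library falls from 15.9% to 4.65%, and the bar for both vector libraries and no SHMT2 library rises from 0.026% to 1.29%.

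In the deposited lists, regions of both SHMT2 lists alone were narrower, weaker and more often far from gene starts than regions in all 4 lists. Their median width was 906 bp, against 2783.5 bp for regions in all 4 lists. Their median place within their own list, as a percentile of fold enrichment, was 22.5 in SHMT2 replicate 4 and 26.3 in SHMT2 replicate 5, against 72.0 and 73.5 for regions in all 4 lists. Only 16.8% lay within 1 kb of a start of a protein-coding gene (called promoter regions here), against 42.8% of regions in all 4 lists. A further 45.1% lay elsewhere in a gene and 38.1% between genes, and 62.9% were more than 10 kb from any start. They were spread evenly, making up 14.6% (chromosome 12) to 17.1% (chromosome 4) of the union regions of each autosome. At equal list lengths 28.4% of the 1858 regions were promoter regions and 53.7% lay over 10 kb from a start. The 514 regions of both vector lists alone lay farther out, at 20.6% and 58.9%, and regions in all 4 lists nearer, at 44.5% and 39.6%.

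Most of the strongest regions of this kind lay at or near a gene start. Of the 10 with the highest rank in both lists, 7 were promoter regions, 2 of them with the start inside (Fndc10 and Nxph3), and all 7 overlapped an H3K4me3 peak in all 5 H3K4me3 libraries. The region upstream of Caprin1 (chr2:103797920-103798318), which encodes an RNA-binding protein of stress granules, had fold enrichments of 5.20 and 5.02, at the 86.8 and 92.8 percentiles. The region upstream of Cmip (chr8:117255945-117256322) had 4.94 and 4.68. Fkbp4, an Hsp90 co-chaperone, had a region of 457 bp upstream of its start (chr6:128439083-128439539) with 4.63 and 4.44.

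Several of these promoters belonged to genes with almost no RNA in these cells. Krt8, a keratin of simple epithelia, Klhl32 and Nxph3, a secreted ligand of neurexins, had at most 0.0347 TPM in every RNA-seq library. Caprin1 had 230.3 to 280.0 TPM in the vector libraries and 299.5 to 317.6 TPM in the SHMT2 libraries. One region outside promoters, chr1:195145458-195146431, lay within Cr2, the complement receptor CD21 of mature B cells, with fold enrichments of 4.62 and 4.21. Another overlapped both Pi4kb and Zfp687, with 5.18 and 4.71. Neither of these 2 overlapped H3K4me3.

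The 14 regions of both vector lists alone were weak. The first of them by rank lay within Mbnl1, a splicing regulator (chr3:60615512-60615867), with fold enrichments of 3.43 and 3.502, at the 31.2 and 59.9 percentiles of the lists. Of the 14, 3 were promoter regions, among them those at Cnot11, a subunit of the CCR4-NOT deadenylase (3.07 and 3.52), and Nin, a centrosomal protein (3.46 and 2.88).

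In the immunoglobulin kappa locus a larger share of regions than over all autosomes was found only in the SHMT2 lists. Rpia, which borders that locus, was the protein-coding gene with the most such regions as nearest gene, 23 of 100. The antigen receptor loci were therefore examined after these counts had been seen, using the span of the RefSeq gene segments. In the kappa locus (chr6:67555636-70726754, 168 segments) H3K4me1 covered 61.2 and 33.2 kb in the vector libraries and 149.6 and 168.1 kb in the SHMT2 libraries. That is a ratio of 3.37, against 1.65 for the whole autosomal lists, and 36 of its 154 regions (23.4%) were in both SHMT2 lists alone, against 15.9% of all regions.

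Almost all of the kappa difference lay over the variable segments, which take up 3148.5 of the 3171.1 kb of the locus. A difference spread evenly over the locus would lie there too. Over the variable segments the covered length was 59.2 and 31.6 kb against 145.0 and 163.9 kb. Over the joining segments and the constant gene, 4.19 kb in all, it was 0.84 and 0.39 kb against 0.55 and 0.68 kb. At equal list lengths the kappa locus still differed, at 49.97 and 33.2 kb against 99.6 and 121.9 kb. In the heavy-chain locus (chr12:113256204-116009954) the covered length was 15.2 and 12.1 kb against 49.4 and 41.5 kb. Here the larger part lay outside the variable segments, over the D and J segments and the constant genes, at 11.3 and 8.01 kb against 39.997 and 32.5 kb.

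The lambda locus (chr16:19061752-19260844) was covered over 32.8% and 22.4% of its span against 38.8% and 38.5%, a ratio of 1.40. The T cell receptor loci were nearly bare in all 4 libraries. H3K4me1 covered 0.0932% to 0.368% of the T cell receptor alpha locus and 0.204% to 0.465% of the beta locus. On these short lengths the ratios of the T cell receptor alpha, beta and gamma loci were 2.96, 1.48 and 7.01. Only the gamma ratio was above that of the kappa locus, from 0 and 0.396 kb against 1.12 and 1.65 kb. A ratio that large was thus not limited to immunoglobulin loci, though in this case it came from a nearly bare locus. At equal list lengths the ratios were 2.66 for kappa, 2.17 for the heavy chain and 1.25 for lambda, and 1.64, 0.483 and 0.859 for T cell receptor alpha, beta and gamma.

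H3K4me1 peaks reached over more gene starts in the SHMT2 libraries. Across 20063 start windows of 16437 protein-coding genes, the start base itself lay inside an H3K4me1 peak at 16.9% and 13.0% of starts in the vector libraries and at 30.5% and 28.9% in the SHMT2 libraries. Coverage was highest on the gene side, 0.8 to 1.0 kb downstream of the start, at 31.9% and 28.3% against 42.6% and 42.3%. A lower shoulder stood 0.6 to 0.8 kb upstream, at 21.2% and 17.7% against 33.8% and 33.0%. The groups did not overlap at any of these positions.

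The dip between the shoulders depended on the CG content of the window. Among 3232 starts with 30 or more CG dinucleotides, peaks covered the start at 11.6% and 8.17% of genes in the vector libraries and at 26.9% and 23.3% in the SHMT2 libraries. The downstream shoulder stood at 49.5% and 44.9% against 65.0% and 64.3%. Coverage at the start was thus 0.235 and 0.182 of the shoulder in the vector libraries and 0.414 and 0.362 in the SHMT2 libraries, a ratio of 1.86 between the group means. Among 5526 starts with 0 to 4 CG dinucleotides there was no dip, with 7.18% and 6.39% of starts covered against 10.5% and 10.9%, and 1.00 to 1.02 of the highest downstream value in all 4 libraries.

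**Figure D3:**
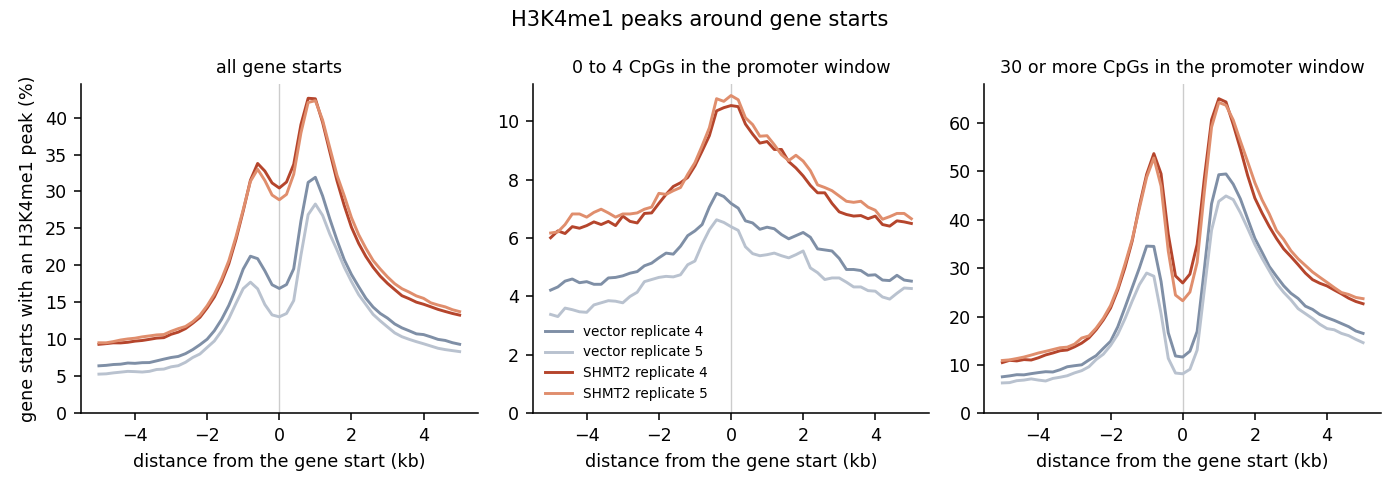
Percent of gene starts with an H3K4me1 peak at each distance from the start, in kb, for all 20063 starts, for 5526 starts with 0 to 4 CG dinucleotides in the 300-base window, and for 3232 starts with 30 or more, 1 line per library. The SHMT2 lines lie above the vector lines throughout, and the dip at CG-rich starts reaches 8.17% and 11.6% in the vector libraries and 23.3% and 26.9% in the SHMT2 libraries.

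The dip was also shallower in the SHMT2 libraries at equal list lengths. Start over shoulder was then 0.236 and 0.182 against 0.402 and 0.346, a ratio of 1.79, and the share of all starts inside a peak was 16.2% and 13.0% against 27.4% and 25.1%. The share of the same CG-rich starts whose start base lay inside an H3K4me3 peak did not separate the groups. It was 29.5% and 32.1% in the vector libraries and 41.6%, 31.5% and 31.4% in the SHMT2 libraries. An H3K4me3 peak beside the start base is not counted in this share. Among the H3K4me3 libraries SHMT2 replicate 4 was the highest here. The H3K4me1 library of that number, a separate library, had the largest share of strong H3K4me1 peaks. Starts flanked by peaks in all 4 libraries and covered by none (3434 starts) had a median of 26 CG dinucleotides and a median expression of 28.6 TPM. Starts inside peaks in all 4 libraries (1795) had 15 and 9.36 TPM, and starts with no peak within 1 kb (7599) had 3 and 0 TPM.

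Starts with a peak within 1 kb in both SHMT2 libraries and no vector library numbered 1108. Their median was 18 CG dinucleotides and 1.15 TPM, and 26.5% of them lay inside an H3K4me3 peak in all 5 libraries, against 33.0% of all starts. Counting a peak in any H3K4me3 library, the order was reversed, at 46.8% against 43.7% of all starts. Letters CCGGAAGT, a core bound by ETS factors, were found on either strand of 5.28% of all 300-base windows, 10.5% of the flanked starts, 2.17% of these 1108 and 0.671% of starts with no peak nearby. The octamer ATTTGCAT, bound by Oct factors in B cells, was found in 1.67%, 1.37%, 1.44% and 2.11%. None of the 7 windows printed above held either run. The ETS core itself contains a CG dinucleotide, and the 4 sets of starts differ in CG content.

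In the 24466 regions of all 4 lists, coverage was wider in the SHMT2 libraries while no single region passed the test. The median log2 difference in covered bases was 0.58. In 73.4% of regions both SHMT2 libraries covered more bases than both vector libraries, and in 0.699% fewer. With limma 0 regions passed at an adjusted p of 0.05, while 6474 had an unadjusted p under 0.05 (6463 wider). Without vector replicate 4 the test called 8598, so this count rests on 1 library.

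Among the 10 widest regions were those over regulators of B cells. The Ikzf1 region (chr11:11688599-11786413, 97.8 kb), over the gene for the lymphoid transcription factor Ikaros, was covered over 91021 and 86588 bp in the vector libraries and 94784 and 97658 bp in the SHMT2 libraries. At Foxo1, a transcription factor that B cell receptor signals restrain, 73911 and 68667 bp were covered against 75769 and 74857 bp. Tec, a kinase downstream of the B cell receptor, had 69549 and 59198 bp against 76902 and 74707 bp. Bcl11a, a transcription factor needed for B cell development, had 66824 and 66318 bp against 73474 and 75197 bp. The widest region, 124.9 kb at Ankrd11, a chromatin regulator, had 116828 and 111009 bp against 122753 and 120985 bp.

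The rank of fold enrichment among the shared regions, scaled from 0 to 100, shifted from promoters toward regions far from them. Both SHMT2 ranks stood above both vector ranks in 20.3% of regions and below them in 19.7%. Among 10465 promoter regions the shares were 16.6% higher and 21.7% lower, and among 5833 intergenic regions 24.0% higher and 16.7% lower. The median shift in rank was −1.69 for promoter regions, 0.98 for other regions in genes and 1.83 for intergenic regions. For regions over 50 kb from a start it was 2.22. Across regions the Spearman correlation of fold enrichment was 0.536 between the vector libraries, 0.757 between the SHMT2 libraries and 0.527 to 0.664 between groups, over 24466 regions that share libraries and peak calling.

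**Figure D4:**
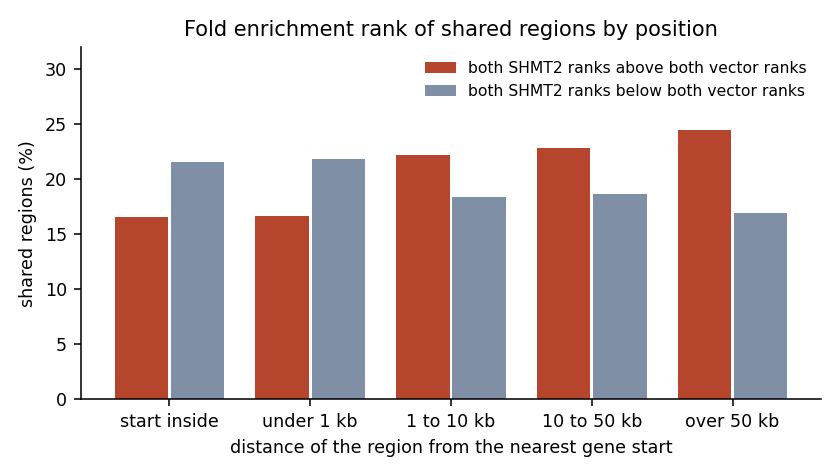
Percent of the 24466 shared regions whose fold enrichment rank was higher in both SHMT2 libraries than in both vector libraries (red), or lower (grey), by distance of the region from the nearest gene start. Lower ranks are the larger share at gene starts and under 1 kb from them, and higher ranks from 1 kb on, reaching 24.5% over 50 kb away.

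No shared region passed the test of rank: limma on quantile-normalised log2 fold enrichment called 0 of 24466, while 1931 had an unadjusted p under 0.05 (1019 higher). The regions with the largest shifts were selected for them, so their values are a description. The first of the rises lay within Cbarp (chr10:80133108-80134930), a regulator of calcium channels, with fold enrichments of 3.43 and 3.14 in the vector libraries and 8.09 and 6.15 in the SHMT2 libraries. A region within Acsl3, an acyl-CoA synthetase (chr1:78701496-78703826), had 3.42 and 2.94 against 5.66 and 5.60. The region upstream of Cyp51, an enzyme of cholesterol synthesis, had 3.45 and 2.91 against 5.67 and 4.97. Of the 10 largest rises 2 were promoter regions and 2 overlapped H3K4me3 in all 5 libraries.

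The largest falls had the opposite setting. Of these 10 regions 8 were promoter regions, and all 10 overlapped H3K4me3 in all 5 libraries. Of all 24466 shared regions 42.8% were promoter regions and 61.7% overlapped H3K4me3 in all 5 libraries. Among shared promoter regions 98.0% overlapped an H3K4me3 peak of any library, so the H3K4me3 count is not separate from the position. Next to Rnpc3, a protein of the minor spliceosome (chr3:113630667-113631382), fold enrichment was 4.20 and 4.43 in the vector libraries and 3.13 and 3.03 in the SHMT2 libraries. Next to Dut, which removes dUTP (chr2:125246139-125246937), it was 4.54 and 3.96 against 3.45 and 3.23. At Amd1, the decarboxylase that directs S-adenosylmethionine to polyamines (chr10:40297154-40301010), it was 4.71 and 4.17 against 3.51 and 3.30. At these 3 a lower fold went with more covered bases. The lengths were 353 and 274 against 716 and 459 bp at Rnpc3, and 288 and 386 against 799 and 623 bp at Dut. At Amd1 they were 1599 and 2689 against 3719 and 3704 bp. Among the other falls, covered bases overlapped between the groups in the regions nearest Fyco1, Slc39a10 and Rab28. Both SHMT2 libraries covered more bases in 73.4% of all 24466 shared regions, so wider coverage was not particular to the falls.

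Per gene, the covered length was summed over the gene and 10 kb on either side. Of 13336 genes with a mean of at least 1000 covered bases, of 20665 protein-coding genes on autosomes, 3463 (26.0%) rose and 0 (0.0%) fell in limma at an adjusted p of 0.05. The median log2 difference of all tested genes was 0.69. Scaled to each library's total covered length it was 0.05, with 0 genes called, 2408 at an unadjusted p under 0.05 and 1363 of these higher. Equal list lengths gave 0 calls with 4623 at an unadjusted p under 0.05. Without either SHMT2 library there were 0 calls, and without vector replicate 4 or 5 there were 9542 or 6540. The calls below are on unscaled covered length, and each list is read against 26.0% called and a median of 0.69.

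The genes at the centre of the study did not pass the test. At Shmt2 itself the covered length was 9.23 and 10.6 kb in the vector libraries and 13.1 and 13.4 kb in the SHMT2 libraries, a log2 difference of 0.40 ± 0.14 (SE) with an adjusted p of 0.0739. Bcl2 had 43.7 and 49.2 kb against 61.4 and 78.7 kb. Sash1, a signalling scaffold, had 3.29 and 0.55 kb against 3.4 and 4.42 kb, and Ptprm, a receptor tyrosine phosphatase, had 0 bases in all 4 libraries. The log2 differences were 0.58 ± 0.16 for Bcl2 (adjusted p = 0.0509) and 1.13 ± 0.63 for Sash1 (adjusted p = 0.171). Scaled to total covered length, Shmt2 and Bcl2 were at −0.30 and −0.14, and at equal list lengths Sash1 was at −0.39.

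B cell identity genes were among the most densely covered. Over the 10 B cell identity genes peaks covered a median of 42.0% and 39.3% of the window in the vector libraries and 55.7% and 58.3% in the SHMT2 libraries, against 3.39%, 2.51%, 6.37% and 6.63% for all genes. Of these 10, 3 rose, with a list median of 0.42. Blk, a Src-family kinase of the B cell receptor, had 18.6 and 12.4 kb against 28.6 and 37.3 kb, a log2 difference of 1.08 ± 0.24 with an adjusted p of 0.042. Pax5, which holds B cell identity, had 55.6 and 39.9 kb against 76.2 and 78.4 kb and rose by 0.71 ± 0.18.

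Among 20 B lineage transcription factors 5 rose, with a median of 0.40 and coverage of 42.0% and 31.8% against 53.7% and 52.8%. Myb, a factor of immature cells, had 2.97 and 1.43 kb against 6.56 and 7.37 kb, and Bach2, which restrains plasma cell differentiation, had 140.4 and 107.6 kb against 202.8 and 197.4 kb. Both rose, by 1.53 ± 0.33 and 0.70 ± 0.15. At equal list lengths Myb had 2.51 and 1.43 kb against 2.46 and 5.035 kb, so its groups overlapped. Ebf1, which opens B cell chromatin, had 142.1 and 89.7 kb against 197.3 and 199.7 kb, and did not pass. Of 17 B cell receptor signalling genes 3 rose, among them Prkcb, a protein kinase C, and Pik3cd, a lipid kinase. Prkcb had 52.2 and 49.2 kb against 81.3 and 85.0 kb. The list median was 0.28.

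Single germinal centre genes and most of the plasma cell list passed the test. Of 15 germinal centre genes 3 rose, with a median of 0.57. Bcl6, the master repressor of this stage, had 11.7 and 4.85 kb against 14.8 and 13.9 kb and did not pass. Of 10 plasma cell genes 6 rose, with a median of 0.76, including Prdm1 and Xbp1, which drive secretion, and Sdc1, the surface marker CD138. Sdc1 had 0.78 and 0.32 kb against 3.27 and 4.75 kb, a log2 difference of 2.12 ± 0.36, and at equal list lengths 0.49 and 0.32 kb against 2.48 and 0 kb. Of 14 BAFF receptor, costimulation and MHC class II genes 6 rose, with a median of 0.65. Among them were the MHC class II gene H2-Ab1, with 12.5 and 8.89 kb against 19.9 and 18.5 kb, and Cd86, with 30.7 and 23.8 kb against 47.0 and 45.5 kb.

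**Figure D5:**
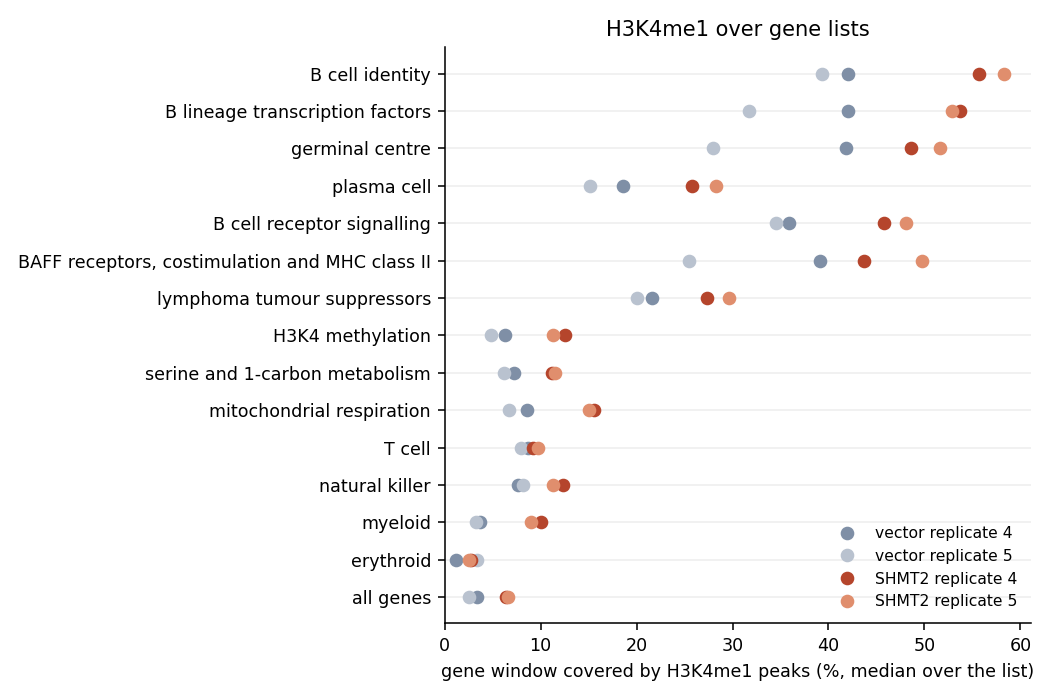
Median percent of the gene window covered by H3K4me1 peaks for 14 gene lists and for all genes, 1 point per library. The B cell identity, transcription factor, germinal centre, receptor signalling and BAFF receptor lists stand above all other lists in all 4 libraries, the erythroid list lies between 1.23% and 3.36%, and the SHMT2 points stand above the vector points in every list but the erythroid one.

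Lymphoma tumour suppressors were covered at 21.6% and 19.99% against 27.3% and 29.7% of their windows. Of 26 tested members of 30 on autosomes, 11 rose, with a median of 0.54. Kmt2c, which itself writes H3K4me1, had 10.4 and 10.3 kb against 22.3 and 21.9 kb (1.06 ± 0.12), and Bcl2l11, the pro-apoptotic BIM, 18.1 and 11.3 kb against 31.05 and 31.3 kb (1.10 ± 0.24). Btg1, an antiproliferative gene mutated in lymphoma, had 7.93 and 7.01 kb against 15.3 and 15.1 kb and was the nearest gene of 47 regions, 8 of them in both SHMT2 lists alone. Rb1 rose as well. Ptprm and Dapk1 had no coverage in any library.

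Of 16 genes of H3K4 methylation 6 rose, with a median of 0.76. They included Kdm5b, an H3K4 demethylase, with 0.77 and 1.05 kb against 3.05 and 2.98 kb, which turned to 0.77 and 1.05 kb against 0.55 and 0.39 kb at equal list lengths, and Dpy30 and Wdr5, core subunits of the methyltransferase complexes. Among 21 tested genes of serine and 1-carbon metabolism 3 rose, with a median of 0.43. Gart, of purine synthesis, had 4.70 and 3.30 kb against 7.92 and 8.71 kb and passed. Psat1, of serine synthesis, did not, at 3.31 and 0.68 kb against 6.98 and 5.17 kb. Of 16 tested genes of mitochondrial respiration 3 rose, with a median of 0.70, among them Cox4i1, with 2.48 and 2.28 kb against 6.38 and 5.26 kb.

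By list median, markers of other cells were covered less densely than B cell genes in every library. Myeloid genes had a median of 3.69% and 3.23% of their windows covered against 10.0% and 8.95%, and 4 of 9 tested rose, with a median of 1.13. Csf3r, the G-CSF receptor, had 0.80 and 0.83 kb against 4.27 and 4.43 kb, and Cebpb, a myeloid factor, 2.73 and 0.94 kb against 7.05 and 6.05 kb, while Lyz2 had 0 to 0.28 kb and Mpo 0 to 1.07 kb. Of 8 tested T cell genes 2 rose (Cd4 and Tbx21), and Cd3e, Cd8a and Bcl11b had 0 bases in all 4 libraries. The list was mixed, since Cd2 was covered over 68.2% and 42.1% of its window against 77.1% and 73.2%. In limma 0 of 3 tested natural killer genes passed, with 2 at an unadjusted p under 0.05, and Ncr1 had 0 bases. Klrb1c of that list was covered over 28.6% and 20.3% of its window against 41.4% and 38.8%. Of 5 tested erythroid genes 1 rose. In the RNA-seq libraries, which are not the ChIP-seq libraries, the myeloid and erythroid lists had median log2 differences of −0.60 and −2.47. The erythroid value came with a wide spread among the vector libraries. Ermap had 6.92, 212.0 and 39.0 TPM in vector replicates 1, 2 and 3 against 7.34, 3.95 and 7.76 TPM, and Klf1 0.589, 31.2 and 4.62 TPM against 1.49, 0.426 and 1.10 TPM. Vector replicate 2 stood far above the others, vector replicate 3 less so, and vector replicate 1 lay among the SHMT2 libraries. The part of these other cell types in the H3K4me1 values was not tested.

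When each library's covered length was scaled to its total, lists moved apart. Both SHMT2 values stood below both vector values for 13 of 17 B cell receptor genes, 13 of 20 B lineage transcription factors and 6 of 10 B cell identity genes, against 25.3% of tested genes. They stood above for 7 of 12 myeloid genes, against 23.2% of all genes. The median scaled log2 difference was −0.44 for B cell receptor signalling, −0.32 for B lineage transcription factors and −0.29 for B cell identity. Medians below 0 were also found outside the B lineage, with −0.29 for natural killer, −0.26 for T cell and −0.19 for serine and 1-carbon metabolism, where 12 of 22 genes stood below, against 16.5% of all genes. The scaled median was 0.45 for the myeloid list, 0.14 for H3K4 methylation and 0.05 over all genes. No gene passed on this scale, so these are shares of a larger total and not calls. A window already densely covered also has little room to grow. Cd22, of the B cell identity list, was covered over 91.0% and 68.0% of its window against 94.0% and 92.3%. The part of this limit in the scaled values was not tested.

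The genes with the largest gains had little or no coverage in the vector libraries. Fhod3, an actin regulator, rose from 2.53 and 0.91 kb to 21.2 and 24.1 kb, a log2 difference of 3.48 ± 0.38. Sema5a, a guidance molecule, had 0.31 and 0 kb against 5.90 and 10.05 kb, and Tbc1d4, a regulator of glucose transporter traffic, 0 and 0.33 kb against 5.68 and 9.09 kb. At equal list lengths Tbc1d4 had 0 and 0.33 kb against 0 and 1.67 kb, so the groups overlapped. Rap1gap, which switches off the GTPase Rap, had 0.44 and 0 kb against 6.53 and 9.37 kb. The kallikrein genes Klk1b8 and Klk1b1, neighbours with near-identical paralogues whose windows overlap, had 0 in both vector libraries and 8.27 and 7.22, and 7.64 and 5.84 kb, in the SHMT2 libraries. At equal list lengths both had 0 in all 4 libraries, as had Plxna4. Sh2d1b1, an adaptor of natural killer cells, had 0 in both vector libraries against 3.53 and 6.61 kb, and then 0 and 3.63 kb at equal lengths.

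Falls were few and small. Of the 13336 tested genes 0.15% had both SHMT2 values below both vector values, against 90.0% with both above, and limma called 0 of them. Over all 20665 genes these shares were 0.121% and 64.5%. Stk25, a kinase, had 1.72 and 2.22 kb against 1.28 and 1.29 kb, a log2 difference of −0.46 ± 0.28. Bcas2, of the spliceosome, had 2.30 and 1.67 kb against 1.18 and 1.496 kb. Supv3l1, a mitochondrial RNA helicase, had 2.65 and 2.10 kb against 1.51 and 1.79 kb. Klhl20 and Cep350 behaved alike, at −0.36 ± 0.27 and −0.30 ± 0.28.

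H3K4me3 overlapped a minority of the regions found only in the SHMT2 lists. Of these 8556 regions 2402 (28.1%, Wilson 95% interval 27.1% to 29.04%, counting error only) overlapped an H3K4me3 peak of any library, against 74.4% of regions in all 4 lists and 11.1% of regions in 1 list. By H3K4me3 library the share was 18.8% and 20.1% in vector replicates 4 and 6 and 25.7%, 24.2% and 20.5% in SHMT2 replicates 4, 5 and 6. All 3 SHMT2 values were above both vector values. The same held over all union regions, at 39.3% and 40.6% against 45.8%, 44.2% and 41.2%. It also held in regions of all 4 lists, at 64.4% and 66.0% against 72.1%, 70.1% and 66.7%. The H3K4me3 lists of SHMT2 replicates 4 and 5, at 37243 and 35666 autosomal peaks, were also the longest, against 32402 to 33520 for the other 3. At promoter regions 79.3% carried H3K4me3, and elsewhere in genes 13.9%.

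DNA methylation was low over the cytosines read within regions, most of which lay in promoter regions, and did not pass a test of difference. In regions of all 4 lists (276685 cytosines, each read at least 10 times in all 6 ERRBS libraries) the mean level was 8.33% ± 0.086 (SD, n = 3) in the vector libraries and 8.77% ± 0.347 in the SHMT2 libraries, against 41.5% ± 0.565 and 41.8% ± 0.079 outside every region. In regions found only in the SHMT2 lists (35923 cytosines) it was 9.65%, 8.60% and 8.85% in the vector libraries and 9.98%, 12.7% and 8.93% in the SHMT2 libraries. SHMT2 replicate 2 was the highest, and the groups overlapped. Only 11557 of the 24466 regions in all 4 lists held such a cytosine. Of their 276685 cytosines 229251 lay in promoter regions, with means of 5.30% in the vector and 5.70% in the SHMT2 libraries. Outside promoters the means were 23.0% and 23.6%. In regions found only in the SHMT2 lists they were 16.2% and 17.5% outside promoters. Of 6850 regions tested, with a mean level of 5% to 95%, limma's moderated quasi-binomial test passed 0 at an adjusted p of 0.05 and 10 percentage points (0.0% called), while 268 had an unadjusted p under 0.05 (214 higher). The treatment label of ERRBS replicates 2 and 3 reads SHMT3 or SHMT4, while their titles read SHMT2, which was used.

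Genes with denser H3K4me1 had a higher median RNA level. Genes with no coverage had a median of 0 TPM, genes with 5 to 10% of their window covered (mean of the 4 libraries) 8.22 TPM, those with 20 to 30% 21.5 TPM and those with over 40% 62.0 TPM. Of 11117 genes tested, limma called 0 (0.0%) between SHMT2 and vector, with 1858 at an unadjusted p under 0.05. Without RNA-seq vector replicate 1 it called 845. Of 5410 genes nearest to a region found only in the SHMT2 lists 3475 could be tested, and their median log2 difference was −0.01 against 0.03 for all 10342 tested protein-coding genes on autosomes. SHMT2 values stood wholly above vector values for 12.5% of them and wholly below for 9.64%, against 17.4% and 7.97% of those 10342 and 16.9% and 8.26% of all 11117 tested. For the 541 tested genes nearest to 3 or more such regions these shares were 9.24% and 13.5%, with a median of −0.03.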

How the data were processed

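H3K4me1 broad peaks and H3K4me3 narrow peaks were deposited by the authors as 1 list per library. Reads were aligned with BWA to mm10 and peaks called with MACS2, per the submitters' processing notes. The 6 input libraries were not analysed here, and their use as peak-calling controls is not stated in those notes, the labels or the headers. The deposited peak values are a fold enrichment ratio and the −log10 of p and q. The authors deposited RNA-seq as TPM, with STAR named in the processing notes, and ERRBS as a coverage count and a percent of calls read as C per cytosine, per the file headers. Groups and replicate numbers came from the titles.

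Positions were placed against protein-coding gene starts of RefSeq GRCm38.p6, the assembly of mm10 coordinates. Fold enrichment at shared regions was taken on the log2 scale, quantile-normalised and tested with limma 3.58.1 (R 4.3.3). Covered width was tested on log2 bases and covered length per gene on log2(bases + 500), neither of them normalised. Genes needed a mean of 1000 covered bases within 10 kb of the gene. TPM was tested with limma on log2(TPM + 1) for genes whose mean reached 1 TPM. Methylation was tested per region on counts from cytosines with coverage of at least 10, with a quasi-binomial model whose dispersion was moderated by limma. Adjusted p-values are Benjamini-Hochberg over all features tested, at a threshold of 0.05. The limma and methylation tests were tested on simulated data. Named regions are the first 10 of each one-group set by the lower of the 2 own-list percentiles, the 10 largest rises and falls in mean rank without overlap, and the 10 widest. Named genes are the study's own, the 10 largest changes in covered length each way, up to 4 non-overlapping members of each list by log2 difference, and the lists' defining markers. The members, lists and rules were chosen with earlier results of these data known. Same-numbered libraries did not deviate together (correlation 0.000757 across regions), and nothing in the labels ties the numbers to an animal or a day. Other tools were Python 3.11.15, numpy 2.4.6, pandas 2.3.3 and scipy 1.17.1. Some members of the lists are not reported here.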

Additional observations from a re-analysis of the deposited data

How the results depend on the processing

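Peak lists give no read depth, so absence of a peak is not absence of H3K4me1, and 2 libraries a group leave the spread poorly known. The ratio of median peak width fell below 1, to 0.907, among peaks with a −log10 q of at least 5, where the ratios of peak number and covered length were 4.57 and 4.04. Regions in both SHMT2 lists alone numbered 1858 at equal list lengths, 13417 when at least 50% of a region had to be covered, and 10485 to 15207 leaving out 1 library. Regions in both vector lists alone numbered 514, 29 and 57 to 693 under these settings, 9 with peaks up to 1 kb apart merged and 0 at a −log10 q of at least 5. When 1 library was left out, the lone library of its group was assumed to vary like the other group.

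With the replicate block, fold enrichment gave 6 calls, covered length per gene 4363, and covered width, methylation and expression 0 each. Without normalisation fold enrichment gave 3 calls, and leaving out 1 library gave 0 to 68 (68 without vector replicate 4). Covered width gave 0 to 8598. Covered length per gene gave 0 calls when scaled to the total, at equal list lengths or over the gene span alone, 1558 with a pseudocount of 100 bases, and 0 to 9542 leaving out 1 library. Expression gave 0 to 845. The H3K4me3 share of regions in both SHMT2 lists alone was 17.3% with at least 50% of the region covered, 16.2% with a peak in all 5 libraries, and 19.3% to 34.2% leaving out 1 H3K4me1 library. The cause of these changes was not tested.

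Scaling to total covered length turned the log2 difference of 9 of 60 named genes: Shmt2 to −0.30, Bcl2 to −0.14, Pax5 to −0.0158, Bach2 to −0.0262, Prkcb to −0.0153, Pik3cd to −0.16, Bcl10 to −0.29, Gata3 to −0.21 and Eomes to −0.51. Equal list lengths turned Sash1 to −0.39 and Creb3l2 to −0.0899, and ended the calls of 30 others. Genes whose mean then fell under 1000 covered bases, Kdm5b and Sdc1 among them, have no value in that test. The ratios at gene starts, alternatives chosen after seeing the data, stayed above 1: starts inside a peak at 1.76 to 2.27 and start over shoulder at 1.65 to 2.14 leaving out 1 library.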
